A study of Macaca mulatta with 8 samples.

Results

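HSP90 chaperones and their co-chaperones were followed in uLPS-exposed rhesus macaque microglia, with and without the P2RY6 antagonist MRS2578. The 10 genes described are the HSP90 paralogs HSP90AA1, HSP90AB1 and TRAP1 and the co-chaperones AHSA1, STIP1, PTGES3, CDC37, FKBP4, CHORDC1 and FKBP5. They were chosen by gene symbol, with earlier results of these data known, and they are 10 of the 35432 genes in the count files. The files give the symbol for 9 of them. The row of CDC37 carries only its Ensembl identifier, which was paired with the symbol through a table of gene names.

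HSP90 is an ATP-dependent chaperone that works as a dimer and brings kinases, steroid receptors and other client proteins to their active fold. HSP90AA1 is the cytosolic paralog that is induced by stress through heat shock factor 1, HSP90AB1 is its largely constitutive cytosolic counterpart, and TRAP1 is the mitochondrial paralog. Co-chaperones bind at set points of the cycle: they load clients, hold a conformation or set the rate of ATP hydrolysis. In macrophages and microglia, kinases of the Toll-like receptor pathways and the glucocorticoid receptor are among the clients of HSP90.

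Primary microglia came from frontal subcortical white matter of 4 adult outbred rhesus macaques, the males R07110 (13 years) and R12016 (9 years) and the females R02046 (19 years) and R14143 (6 years). Each donor gave 1 library with uLPS alone, an agonist of TLR4 used at 10 µg/mL for 16 h from day 7 of an 8-day culture with M-CSF, and 1 library in which 5 µM MRS2578 was added 1 h before the same uLPS exposure. All 8 libraries therefore carry uLPS, and no library of unstimulated microglia is analysed here. MRS2578 is selective for P2RY6, a receptor for extracellular UDP, but is described as not entirely specific. The study's methods name DMSO controls wherever it was used, but the treatment labels of the uLPS libraries name no DMSO.

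Libraries held between 9231109 and 32790348 counted reads, the smallest being the uLPS library of R02046. Of the 10 marker genes of microglia, 8 reached a mean of 1 CPM (read counts scaled to library size, after TMM), among them CSF1R at 1007 to 1471 CPM and CD68 at 716 to 1289 CPM. TMEM119 stayed at or under 0.316 CPM and CX3CR1 at or under 2.21 CPM, so 2 defining markers of microglia in tissue were nearly absent from these cultures. P2RY12, also on this list, was detected in every library, at 5.70 to 13.3 CPM. P2RY6 was at 49.5 to 109.9 CPM. Summed markers of fibroblasts ran from 90.2 to 1191 CPM with uLPS and from 204 to 529.6 CPM with MRS2578 (5 of 5 genes at a mean of 1 CPM or more), and those of astrocytes from 88.7 to 205 CPM and from 112 to 189.9 CPM (4 of 6). Endothelial and mural markers summed to 158 to 245 CPM and 159 to 296 CPM (4 of 7), oligodendrocyte markers to 239 to 407 CPM and 224 to 304 CPM (2 of 7 matched of 8 listed), and lymphocyte markers to at most 0.759 CPM (0 of 7). These ranges overlap between the conditions, and their part in the results below was not tested. In such bulk libraries, fewer cells of a type and less RNA per cell cannot be told apart.

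The labels of 1 donor are in conflict. The study's table of the genes it called differentially expressed includes 8 columns of CPM. Over these genes, each column is proportional to the counts of exactly 1 library. For 6 columns the condition is that of the sample label. For the other 2, both from R02046, the conditions are the reverse of the labels. Neither source says which assignment holds, so the members' values are given under the deposited labels first, then with the R02046 libraries exchanged, and then without R02046. Ratios and genes of other lists are given for the deposited labels and the exchange. Exchanging the libraries turns the sign of each within-donor difference of R02046 and leaves every library's level as it is.

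Sequence upstream of the genes is shown first, because the members differ in how well they match the element that heat shock factor 1 recognizes. The element is built from inverted repeats, and 2 neighbouring units read GAANNTTC or TTCNNGAA, each of which reads the same on both strands. An array of 3 units in a row is an overlap of the 2 patterns. In the 250 bases upstream of the annotated gene start, a pair of units was present for 4 of the 10 members (HSP90AA1, CHORDC1, FKBP4 and STIP1), against 10% of 20774 protein-coding genes of the Mmul_10 RefSeq annotation. An array of 3 units was present for 2 members, HSP90AA1 and CHORDC1, against 0.347% of those genes. The sequences below were read from Mmul_10 with starts from its RefSeq annotation, 5′ to 3′ towards the gene, and capitals mark the matches. HSP90AB1 has 3 annotated transcript starts, none with a match, and the window of its curated RefSeq transcript is shown, which lies in an intron of its longer predicted transcripts. The 4 windows other than that of HSP90AB1 end at the gene start.
HSP90AA1 (Mmul_10, chr7:164313671-164313920, minus strand): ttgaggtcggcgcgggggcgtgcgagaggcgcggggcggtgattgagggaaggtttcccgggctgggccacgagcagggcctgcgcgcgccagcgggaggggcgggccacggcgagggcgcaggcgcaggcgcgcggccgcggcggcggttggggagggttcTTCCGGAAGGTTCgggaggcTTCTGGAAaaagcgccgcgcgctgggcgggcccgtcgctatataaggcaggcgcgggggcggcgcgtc
CHORDC1 (Mmul_10, chr14:83356554-83356803, minus strand): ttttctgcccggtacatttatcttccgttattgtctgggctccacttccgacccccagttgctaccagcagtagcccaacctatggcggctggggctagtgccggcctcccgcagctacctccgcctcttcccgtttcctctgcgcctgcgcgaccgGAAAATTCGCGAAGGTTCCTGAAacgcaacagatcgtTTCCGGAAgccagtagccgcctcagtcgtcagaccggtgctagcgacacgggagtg
FKBP4 (Mmul_10, chr11:2900839-2901088, plus strand): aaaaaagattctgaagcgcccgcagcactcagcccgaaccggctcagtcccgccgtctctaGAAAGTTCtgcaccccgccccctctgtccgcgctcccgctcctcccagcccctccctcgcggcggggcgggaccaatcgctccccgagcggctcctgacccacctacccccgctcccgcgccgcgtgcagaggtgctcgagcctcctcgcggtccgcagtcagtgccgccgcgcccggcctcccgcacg
HSP90AB1 (Mmul_10, chr4:125082555-125082804, minus strand): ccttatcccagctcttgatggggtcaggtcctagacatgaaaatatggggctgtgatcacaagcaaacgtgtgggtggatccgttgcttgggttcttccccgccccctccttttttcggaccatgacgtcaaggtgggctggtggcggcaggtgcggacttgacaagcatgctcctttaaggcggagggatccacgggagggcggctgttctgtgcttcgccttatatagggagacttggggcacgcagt
FKBP5 (Mmul_10, chr4:133793708-133793957, plus strand): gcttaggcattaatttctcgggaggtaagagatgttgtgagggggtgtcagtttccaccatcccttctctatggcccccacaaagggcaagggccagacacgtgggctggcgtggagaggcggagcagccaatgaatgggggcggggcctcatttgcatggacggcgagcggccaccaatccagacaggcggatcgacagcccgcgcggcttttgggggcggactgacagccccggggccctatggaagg

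Matches that overlap were each counted. HSP90AA1 held 3 pairs of units, including 1 array of 3, upstream of a TATA box sequence (tatataa). CHORDC1 held 5 pairs and 3 such arrays, but these arrays overlap within 1 unbroken run of units and are not separate elements. The second annotated start of CHORDC1 had no match. FKBP4 had a single pair 181 bases from the start and STIP1 a single pair 238 bases from it. No match was found in the windows of HSP90AB1, TRAP1, AHSA1, PTGES3, CDC37 and FKBP5, which says only that these letters are not there. A match describes the sequence and is not evidence of binding.

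The levels of the members were compared per kilobase of exon in the uLPS libraries. HSP90AA1 had the highest median, 582 CPM per kilobase (range 519 to 931). HSP90AB1 followed at 415 (range 384 to 572), and their ranges overlapped. The order of these cytosolic paralogs rests on the exon lengths used, 2931 bases for HSP90AA1 and 4189 bases for HSP90AB1. In CPM alone, HSP90AB1 was above HSP90AA1 with uLPS in R07110 (1610 against 1522) and R12016 (1810 against 1547). HSP90AA1 was above HSP90AB1 in R14143 (1866 against 1664) and, as labelled, in R02046 (2730 against 2396). CDC37 (median 131), STIP1 (125), PTGES3 (114), AHSA1 (97.0) and FKBP4 (80.2 CPM per kilobase) formed a middle group in which each gene's range overlapped that of the next, and none reached the range of HSP90AB1. CHORDC1 (median 27.7), TRAP1 (23.7) and FKBP5 (19.5 CPM per kilobase) were lowest, again with overlapping neighbours and below the range of FKBP4. The cytosolic paralogs were thus above all 7 co-chaperones and the mitochondrial paralog in every uLPS library. Together the 10 genes took between 0.427% and 1.36% of all counted reads, with both extremes in R12016, the lowest with uLPS and the highest with MRS2578.

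**Figure D1:**
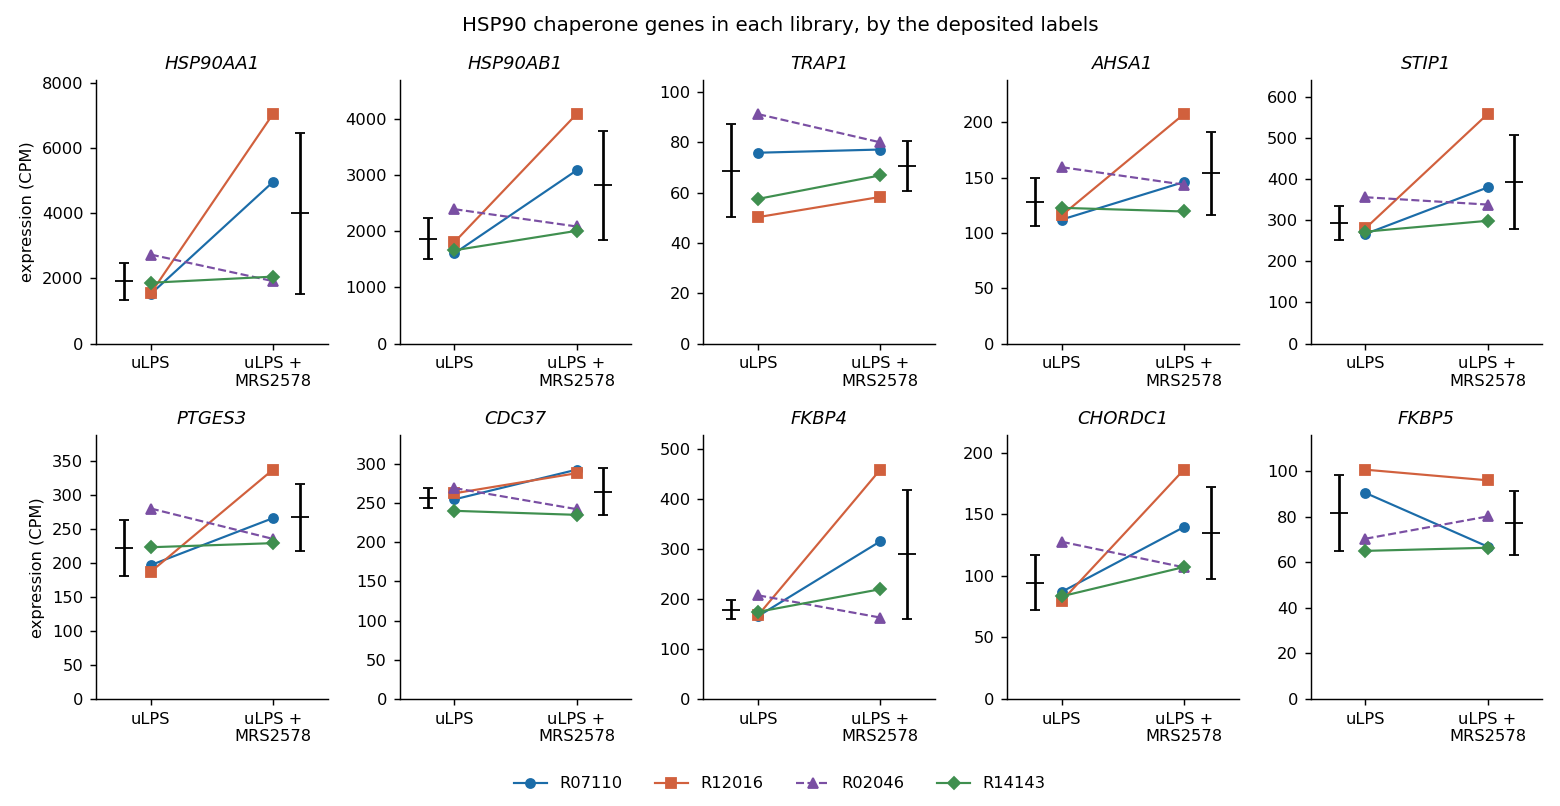
Expression of the 10 genes in each library, in CPM on axes that start at 0. Each line joins the uLPS and uLPS+MRS2578 libraries of 1 donor by the deposited labels (R02046 dashed), and black bars are the mean ± SD of the 4 donors. For most genes the lines of R07110 and R12016 are steep and upward, those of R14143 are nearly flat and those of R02046 go down.

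The effect of MRS2578 was asked within each animal. Under the deposited labels, 0 of the 10 members passed edgeR's quasi-likelihood test at an adjusted p of 0.05, as did 0% of the 12131 genes tested, and 0 members had an unadjusted p under 0.05, against 5.14% of all genes (624). With the R02046 libraries exchanged, 0 members and 0.618% of all genes (75) passed at an adjusted p of 0.05. In that assignment 7 of the 10 had an unadjusted p under 0.05, each of them higher with MRS2578, where 6.86% of all genes were higher at that p. Without R02046, 0 members and 0% of 12295 genes passed the adjusted threshold, and 6 members were higher at an unadjusted p under 0.05, against 5.73% of all genes. The median fitted log2 fold change of the members was 0.33, 0.41 and 0.49 in these 3 assignments, and that of all genes lay between -0.01 and 0.00. Calls of members were made only by other tests of the exchanged libraries or after R14143 was also left out.

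The direction of the differences was then counted. For R07110, R12016 and R14143, whose labels are not in conflict, 7 of the 10 genes were higher with MRS2578 in all of these donors at once, against 17% of all genes. The same 7 (HSP90AA1, HSP90AB1, TRAP1, STIP1, PTGES3, FKBP4 and CHORDC1) were higher in all 4 donors once the R02046 libraries were exchanged, against 10.6% of all genes. As labelled, 9 members were higher with MRS2578 in R07110, 9 in R12016, 8 in R14143 and 1 in R02046. The size differed by donor: the median within-donor difference of the 10 genes in log2 CPM was 0.92 in R12016, 0.47 in R07110, 0.14 in R14143 and -0.19 in R02046, while that of all genes lay between -0.02 and 0.00 in each donor.

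The fitted sizes rest on R12016 to a large part. When this donor was left out under the deposited labels, the log2 fold change went from 0.88 to 0.43 for HSP90AA1, from 0.59 to 0.31 for FKBP4, from 0.55 to 0.34 for HSP90AB1 and from 0.50 to 0.27 for CHORDC1. It went from 0.39 to 0.20 for STIP1, from 0.27 to 0.08 for PTGES3 and from 0.26 to 0.07 for AHSA1. With the exchange, HSP90AA1 was at 0.78 and FKBP4 at 0.54 without R12016, and all 7 of these genes stayed above 0.

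**Figure D2:**
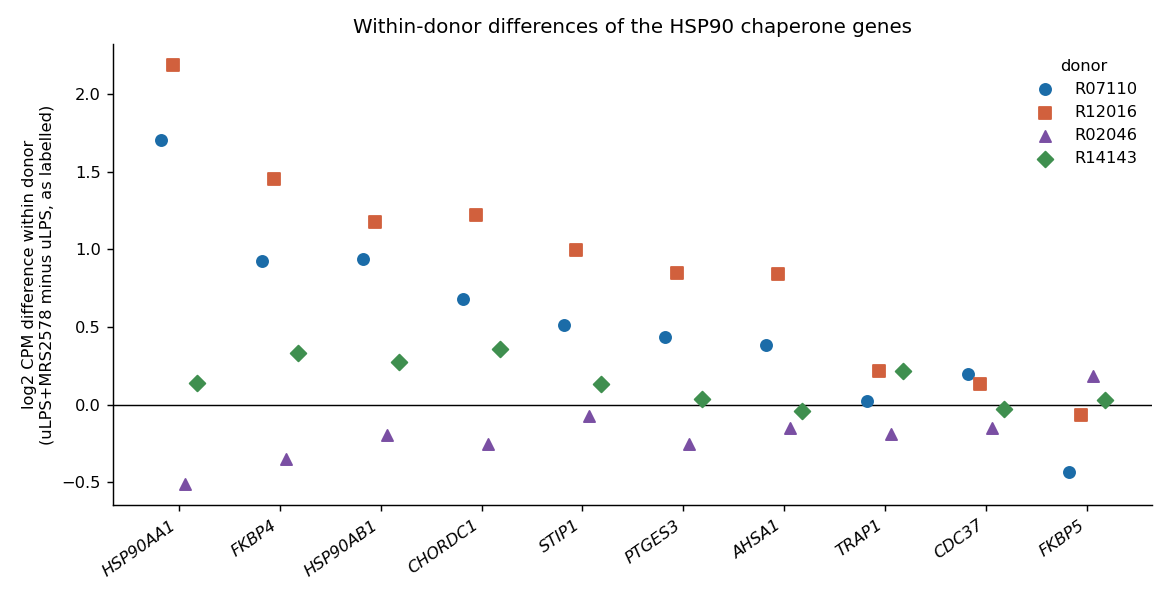
Within-donor difference of each gene in log2 CPM (uLPS+MRS2578 minus uLPS, as labelled), with 1 symbol per donor. R12016 is highest for 7 of the 10 genes, R02046 is below 0 for every gene but FKBP5, and R14143 lies between -0.04 and 0.36.

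HSP90AA1 (ENSMMUG00000054990, chromosome 7, 164307406 to 164313670 of Mmul_10, minus strand), the stress-inducible cytosolic paralog, had the largest fitted difference of the 10 genes. In R07110 its level was 1522 CPM after uLPS and 4956 CPM after MRS2578 and uLPS, and in R12016 these were 1547 and 7039.6 CPM. In R14143 it was at 1866 and 2053 CPM, and in R02046, as labelled, at 2730.2 and 1917 CPM. The MRS2578 libraries of R07110 and R12016 stood far above the other 6 libraries, and the groups overlapped because of the labelled libraries of R02046. The means were 1916 ± 565 CPM with uLPS and 3992 ± 2469 CPM with MRS2578 (SD, n = 4 donors), a log2 fold change of 0.88 ± 0.47 in edgeR (adjusted p = 0.878), where ± is the SE, as for every fitted value from here on. With the R02046 libraries exchanged, the means were 1713 ± 208 and 4195 ± 2266 CPM and the log2 fold change was 1.13 ± 0.33 (adjusted p = 0.154). Without R02046 it was 1.36 ± 0.41 (adjusted p = 0.265). As folds, these values are 1.84, 2.19 and 2.56. The exchange moved the SD of the 4 uLPS libraries from 565 to 208 CPM. That of the 4 MRS2578 libraries went from 2469 to 2266 CPM. The study reported HSP90AA1 among the heat shock protein genes induced by MRS2578 in uLPS-exposed microglia, and by RT-PCR also with MRS2578 alone.

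HSP90AB1 (ENSMMUG00000022685, chromosome 4, 125076090 to 125084774, minus strand), the constitutive paralog, showed the same order of donors. Its within-donor difference was smaller than that of HSP90AA1 in R07110 (0.94 against 1.70 in log2 CPM) and R12016 (1.18 against 2.19) and larger in R14143 (0.27 against 0.14). In R07110 the uLPS library was at 1610.1 CPM and the MRS2578 library at 3089 CPM, and in R12016 at 1809.8 and 4092 CPM. The values were 1664 and 2011 CPM in R14143 and, as labelled, 2396 and 2089 CPM in R02046. Again only R07110 and R12016 had MRS2578 libraries clear of all uLPS libraries. The fitted log2 difference was 0.55 ± 0.25 (adjusted p = 0.878) under the deposited labels, 0.65 ± 0.18 (adjusted p = 0.148) with the R02046 libraries exchanged and 0.80 ± 0.21 (adjusted p = 0.220) without R02046. Reads that map to several places were not counted, so reads shared with near-identical processed copies of the HSP90 genes are missing from both paralogs.

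TRAP1 (ENSMMUG00000021868, chromosome 20, 3697162 to 3757786, minus strand), the mitochondrial paralog, varied more between donors than between conditions. It was at 75.8 and 77.1 CPM in R07110, 50.2 and 58.3 CPM in R12016, 57.5 and 66.8 CPM in R14143, and 91.1 and 79.9 CPM in R02046 (uLPS first, as labelled). The groups overlapped widely. In edgeR, its log2 difference was 0.07 ± 0.11 (adjusted p = 0.942) under the deposited labels, 0.16 ± 0.09 (adjusted p = 0.403) with the exchange and 0.15 ± 0.10 (adjusted p = 0.578) without R02046. TRAP1 overlaps DNASE1 on the opposite strand, and the strand setting of the counting is not given in the sources used here.

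**Figure D3:**
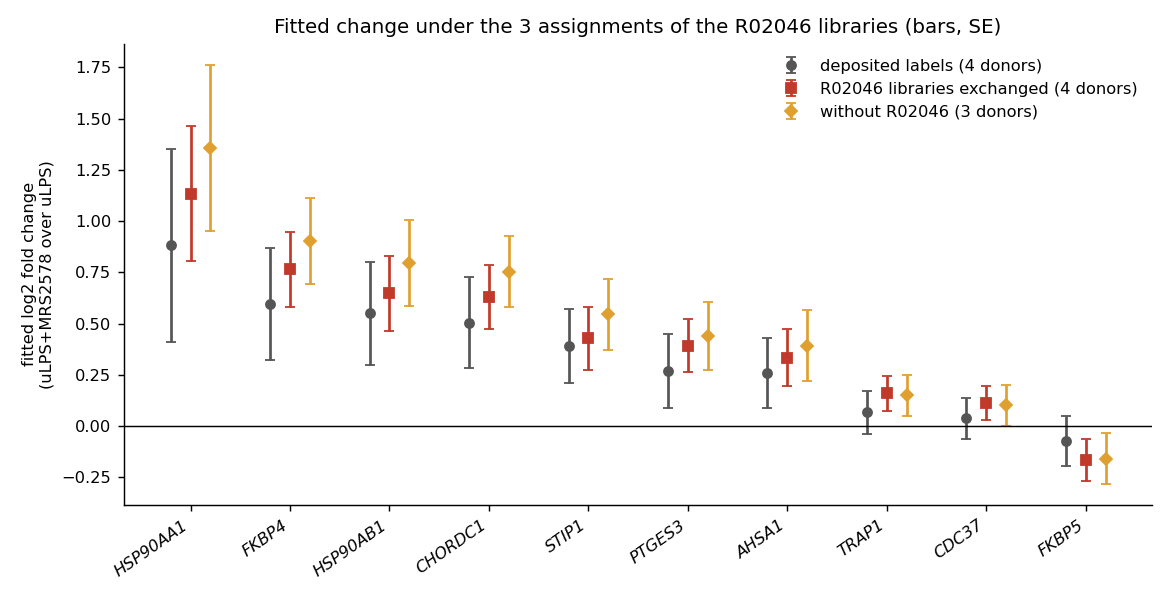
Fitted log2 fold change of each gene (uLPS+MRS2578 over uLPS) with its SE, from edgeR with the donor as a block, for the deposited labels, the R02046 libraries exchanged and R02046 left out. HSP90AA1 is highest in all 3 assignments, and TRAP1, CDC37 and FKBP5 lie nearest 0.

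Among the co-chaperones, FKBP4 (ENSMMUG00000007405, chromosome 11, 2901089 to 2910284, plus strand) had the largest fitted difference. It encodes FKBP52, an immunophilin that binds HSP90 through its tetratricopeptide repeats and favours steroid receptor activity. FKBP4 was at 166 and 315 CPM in R07110, 167 and 458 CPM in R12016, 174 and 219 CPM in R14143, and 207 and 163 CPM in R02046 (uLPS first, as labelled). Its uLPS libraries lay within 163 to 174 CPM once R02046 was exchanged, and all 4 MRS2578 libraries then lay above them, from 207 CPM upwards. Its fitted value was, in log2, 0.59 ± 0.27 (adjusted p = 0.878) under the deposited labels, 0.76 ± 0.18 (adjusted p = 0.106) with the exchange and 0.90 ± 0.21 (adjusted p = 0.193) without R02046. A long non-coding RNA gene overlaps FKBP4 on the opposite strand.

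FKBP5 (ENSMMUG00000011520, chromosome 4, 133793958 to 133913446, plus strand) encodes FKBP51, the related immunophilin that lowers glucocorticoid receptor activity and is itself a target of that receptor. It was the one member with a fitted value below 0. FKBP5 was at 90.4 and 66.9 CPM in R07110, 101 and 95.9 CPM in R12016, 65.0 and 66.4 CPM in R14143, and 70.3 and 80.1 CPM in R02046 (uLPS first, as labelled). The groups overlapped, and only R07110 and R12016 were lower with MRS2578 as labelled. edgeR put the log2 difference at -0.07 ± 0.12 (adjusted p = 0.945) under the deposited labels, -0.17 ± 0.10 (adjusted p = 0.456) with the exchange and -0.16 ± 0.12 (adjusted p = 0.633) without R02046. Without R07110 it was 0.05 under the deposited labels and -0.08 with the exchange, so the sign rests on that donor under the deposited labels only. A pair of pseudogenes lies on the opposite strand within FKBP5.

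CHORDC1 (ENSMMUG00000005209, chromosome 14, 83333463 to 83356553, minus strand) encodes a CHORD-domain protein, also called morgana, that binds the ATPase domain of HSP90. It was at 87.1 and 140 CPM in R07110, 79.8 and 186 CPM in R12016, 83.4 and 107 CPM in R14143, and 128 and 107 CPM in R02046 (uLPS first, as labelled). In R14143 it had the largest difference of the 10 genes, 0.36 in log2 CPM. The fit gave, in log2, 0.50 ± 0.22 (adjusted p = 0.878) under the deposited labels, 0.63 ± 0.15 (adjusted p = 0.108) with the exchange and 0.75 ± 0.17 (adjusted p = 0.187) without R02046.

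STIP1 and CDC37 are adaptors that bring clients to HSP90. STIP1 (ENSMMUG00000012953, chromosome 14, 10340915 to 10360696), which encodes HOP, the adaptor that links HSP70 to HSP90, was at 267 and 380.0 CPM in R07110, 281 and 559 CPM in R12016, 272 and 299 CPM in R14143, and 356 and 338 CPM in R02046 (uLPS first, as labelled). CDC37 (ENSMMUG00000003111, chromosome 19, 10152217 to 10164613), the adaptor for kinase clients, was at 254 and 292 CPM, 262 and 288 CPM, 239.9 and 235 CPM, and 269 and 242 CPM in the same order. CDC37 was the steadiest member: its 8 libraries ran only from 235 to 292 CPM. The log2 fold change of STIP1 was 0.39 ± 0.18 (adjusted p = 0.878) under the deposited labels, 0.43 ± 0.15 (adjusted p = 0.222) with the exchange and 0.54 ± 0.17 (adjusted p = 0.284) without R02046. For CDC37 it was 0.04 ± 0.10 (adjusted p = 0.967), 0.11 ± 0.08 (adjusted p = 0.543) and 0.10 ± 0.10 (adjusted p = 0.722). Without R07110, CDC37 was at -0.02 under the deposited labels and at 0.08 with the exchange.

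AHSA1, the main activator of the HSP90 ATPase, and PTGES3, which encodes p23 and holds the closed, ATP-bound dimer, act late in the cycle. AHSA1 (ENSMMUG00000013554, chromosome 7, 139574781 to 139586107) was at 112 and 146 CPM in R07110, 116 and 207 CPM in R12016, 123 and 119 CPM in R14143, and 159 and 144 CPM in R02046 (uLPS first, as labelled). PTGES3 (ENSMMUG00000013766, chromosome 11, 56240089 to 56266116) was at 197 and 266 CPM, 188 and 338 CPM, 224 and 229.6 CPM, and 281 and 236 CPM in the same order. Both were higher with MRS2578 in R07110 and R12016 and nearly level in R14143. The log2 fold change of AHSA1 was 0.26 ± 0.17 (adjusted p = 0.881) under the deposited labels, 0.33 ± 0.14 (adjusted p = 0.289) with the exchange and 0.39 ± 0.17 (adjusted p = 0.398) without R02046. That of PTGES3 was 0.27 ± 0.18 (adjusted p = 0.882), 0.39 ± 0.13 (adjusted p = 0.198) and 0.44 ± 0.16 (adjusted p = 0.336).

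Separation of the groups was also counted. Under the deposited labels, 0 members had every MRS2578 library above every uLPS library, against 0.668% of all genes. With the R02046 libraries exchanged this held for 3 members, HSP90AA1, FKBP4 and CHORDC1, against 1.41% of all genes. For CHORDC1 the gap was small, 106.9 CPM in the highest uLPS library and 107.1 CPM in the lowest MRS2578 library. Over R07110, R12016 and R14143 it held for 6 members (these 3, HSP90AB1, STIP1 and PTGES3), against 5.61% of all genes.

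Paralogs and partner co-chaperones were then contrasted within libraries, as the log2 ratio of their counts, which does not depend on library scaling. A total of 5 ratios were tested with an exact two-sided permutation test that flips the sign of the 4 donor values, for which the smallest possible p is 0.13. The ratio of HSP90AA1 to HSP90AB1 went from 0.945 with uLPS to 1.60 with MRS2578 in R07110 and from 0.855 to 1.72 in R12016. It went from 1.12 to 1.02 in R14143 and, as labelled, from 1.14 to 0.918 in R02046. The ratio is one of counts, not corrected for gene length. It was higher with MRS2578 in R07110 and R12016, lower in R14143, and in R02046 its direction depends on the assignment. The mean change was 0.33 ± 0.65 in log2 (SD, n = 4 donors, exact permutation p = 0.5, adjusted 0.625) under the deposited labels and 0.49 ± 0.51 with the exchange (exact permutation p = 0.25, adjusted 0.25). Under the deposited labels the mean change was 0.11 without R12016 and 0.19 without R07110. For HSP90AA1 over TRAP1, the log2 ratio moved by 1.68 in R07110, 1.97 in R12016, -0.08 in R14143 and -0.32 in R02046 as labelled (mean 0.81 ± 1.18, exact permutation p = 0.5, adjusted 0.625), with a mean of 0.97 ± 1.01 after the exchange (exact permutation p = 0.25, adjusted 0.25).

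The ratio of FKBP4 to FKBP5, immunophilins with opposite effects on steroid receptors, went from 1.83 to 4.70 in R07110, from 1.66 to 4.77 in R12016 and from 2.68 to 3.30 in R14143. In R02046, as labelled, it went from 2.94 to 2.03. The mean log2 change was 0.66 ± 0.96 (exact permutation p = 0.375, adjusted 0.625) under the deposited labels. With the exchange all 4 donors were higher, at 0.93 ± 0.60 (exact permutation p = 0.13, the smallest possible, adjusted 0.25). STIP1 over CDC37 was higher with MRS2578 in all 4 donors as labelled, by 0.86 in R12016, 0.31 in R07110, 0.16 in R14143 and 0.08 in R02046 (mean 0.35 ± 0.35, exact permutation p = 0.13, adjusted 0.625). After the exchange the mean was 0.31 ± 0.40, with 3 of 4 donors higher (exact permutation p = 0.25, adjusted 0.25). AHSA1 over PTGES3 stayed between 0.520 and 0.618 in all 8 libraries, with a mean log2 change of -0.01 ± 0.08 (exact permutation p = 0.875, adjusted 0.875) as labelled and -0.06 ± 0.04 after the exchange (exact permutation p = 0.13, adjusted 0.25).

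**Figure D4:**
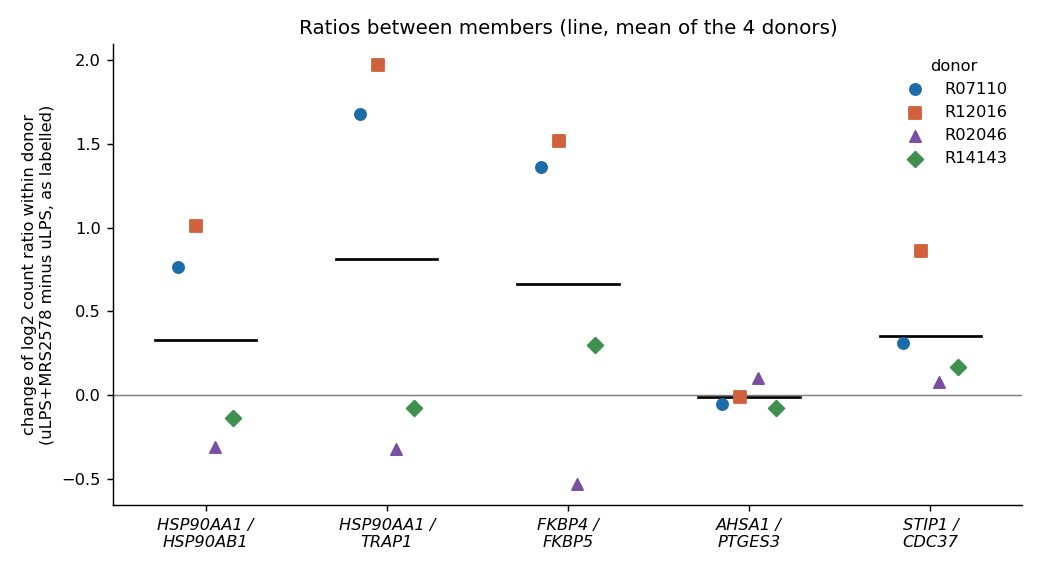
Change of the log2 count ratio between members within each donor (uLPS+MRS2578 minus uLPS, as labelled), with the mean of the 4 donors as a line. The 2 ratios with HSP90AA1 and that of FKBP4 to FKBP5 are high in R07110 and R12016, and the ratio of AHSA1 to PTGES3 stays near 0 in every donor.

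The co-variation of the members was described over the 8 libraries, which share donors, and does not depend on the labels. The log2 CPM of HSP90AA1 correlated with that of HSP90AB1 at a Pearson r of 0.98, FKBP4 at 0.97, CHORDC1 at 0.95, STIP1 at 0.93, PTGES3 at 0.91, AHSA1 at 0.87 and CDC37 at 0.79. TRAP1 (0.07) and FKBP5 (-0.02) did not follow it. The MRS2578 libraries of R07110 and R12016, at 4956 and 7039.6 CPM of HSP90AA1, stood far above the others and weigh heavily in each of its correlations. Among 8176 genes with a symbol and a mean of 10 CPM or more, the 5 most like HSP90AA1 were HSPA5 (r = 0.997), MAPK8IP1 (0.99), DNAJB1 (0.99), HSPD1 (0.99) and HSPH1 (0.99). HSPA5 is the HSP70 chaperone of the endoplasmic reticulum, MAPK8IP1 a scaffold of JNK signaling, DNAJB1 an HSP40 co-chaperone, HSPD1 the mitochondrial HSP60 and HSPH1 an HSP110 nucleotide exchange factor. HSP90AB1 ranked 12th and FKBP4 17th of these genes. The genes most like FKBP5 were NAPA (r = 0.96), FMNL2 (0.96), MTMR10 (0.95), SAMD9 (0.95) and IFI44L (0.94), and the highest correlation of another member with it was 0.27, for CDC37.

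Genes around the HSP90 cycle were counted in 4 lists. Of 34 other HSP90 paralogs and co-chaperones, 29 were tested, and 0 passed at an adjusted p of 0.05 in any of the 3 assignments. At an unadjusted p under 0.05, 2 were higher and 0 lower with MRS2578 under the deposited labels, and 10 were higher and 1 lower with the exchange. Over all genes, 2.7% were higher and 2.44% lower at that p under the deposited labels, and 6.86% higher and 9.59% lower with the exchange. Their median log2 fold change was 0.06 under the deposited labels, 0.10 with the exchange and 0.10 without R02046. NUDC, which binds HSP90 and dynein-complex proteins, was at 131 and 339 CPM in R07110, 134 and 639.8 CPM in R12016, 129.6 and 156 CPM in R14143, and 256 and 179 CPM in R02046 as labelled. Its fitted log2 change was 0.85 ± 0.43 (adjusted p = 0.878) and, with the exchange, 1.1 ± 0.30 (adjusted p = 0.134). RUVBL2, an ATPase of the R2TP complex that works with HSP90, was at 0.62 ± 0.36 (adjusted p = 0.878) and 0.88 ± 0.25 (adjusted p = 0.145). FNIP2, a partner of folliculin that slows the HSP90 ATPase, was higher in all 4 donors as labelled, at 0.58 ± 0.13 (adjusted p = 0.878) and, with the exchange, at 0.43 ± 0.18 (adjusted p = 0.302).

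All 22 client kinases, receptors and factors were tested. None passed at an adjusted p of 0.05 in edgeR's test under any of the 3 assignments, and at an unadjusted p under 0.05, 1 was higher and 1 lower under the deposited labels, against 2 higher and 9 lower with the exchange, where 6.86% of all genes were higher and 9.59% lower. Their median log2 fold change was -0.04, -0.14 with the exchange and -0.12 without R02046. NR3C1, the glucocorticoid receptor, was at 535 and 354 CPM in R07110, 743 and 319 CPM in R12016, 558 and 454 CPM in R14143, and 271 and 418 CPM in R02046 as labelled. It was thus lower with MRS2578 in the 3 donors whose labels are not in conflict, with a log2 fold change of -0.38 ± 0.27 (adjusted p = 0.892) under the deposited labels and -0.68 ± 0.14 (adjusted p = 0.0845) with the exchange. RIPK2, a kinase of NOD signaling, was at -0.57 ± 0.21 (adjusted p = 0.878) and -0.67 ± 0.15 (adjusted p = 0.0944). MAP3K14, the NF-κB-inducing kinase, was at 0.77 ± 0.24 (adjusted p = 0.878) and 0.66 ± 0.26 (adjusted p = 0.265), and was higher in all 4 donors as labelled.

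Of 12 target genes of the glucocorticoid receptor, 10 were tested and 0 passed under any of the 3 assignments. At an unadjusted p under 0.05, 0 were higher and 1 was lower under the deposited labels (2.44% of all genes lower) and with the exchange (9.59%). The median log2 fold change was -0.17, and -0.10 with the exchange. CEBPD, a transcription factor of the acute phase, was at -0.72 ± 0.21 (adjusted p = 0.878) and, with the exchange, at -0.42 ± 0.29 (adjusted p = 0.513). TSC22D3, which encodes GILZ, was at -0.27 ± 0.28 (adjusted p = 0.916) and -0.46 ± 0.23 (adjusted p = 0.380). DUSP1, a MAP kinase phosphatase, was at 0.42 ± 0.46 (adjusted p = 0.919) and 0.77 ± 0.35 (adjusted p = 0.328). It was at 30.7 and 80.9 CPM in R07110 and 44.7 and 140 CPM in R12016, but at 76.5 and 46.2 CPM in R14143 and, as labelled, 54.2 and 34.2 CPM in R02046.

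Heat shock factor 1 and its classical targets formed the list with the largest median. Of 18 genes, 15 were tested, and HSPA1A, HSPA1B and HSPA6 were not analysed here. In edgeR's test 0 passed at an adjusted p of 0.05 under any of the 3 assignments. At an unadjusted p under 0.05, 4 were higher with MRS2578 under the deposited labels, against 2.7% of all genes, and 11 with the exchange, against 6.86%, and 0 were lower in both. The median log2 fold change was 0.98, 1.33 with the exchange and 1.54 without R02046, beside 0.33, 0.41 and 0.49 for the 10 HSP90 genes. DNAJA4, an HSP40 co-chaperone, was at 10.9 and 341 CPM in R07110, 16.3 and 686 CPM in R12016, 11.2 and 24.7 CPM in R14143, and 72.0 and 9.80 CPM in R02046 as labelled. Its fitted log2 change was 2.62 ± 1.66 (adjusted p = 0.879) under the deposited labels and 3.73 ± 0.70 (adjusted p = 0.0629) with the exchange. HSPB1, the small heat shock protein HSP27, was at 2.11 ± 1.35 (adjusted p = 0.881) and 2.92 ± 0.72 (adjusted p = 0.11). SERPINH1, the collagen chaperone HSP47, was at 2.14 ± 1.98 (adjusted p = 0.906) and 2.95 ± 1.36 (adjusted p = 0.335), but was lower with MRS2578 in R14143, 62.7 against 27.8 CPM. HSP90AA1, CHORDC1, FKBP4 and STIP1, the 4 members with a pair of units upstream, were among the 5 members with the largest fitted values. The other one was HSP90AB1, which had no match. None of these 5 members passed at an adjusted p of 0.05 in edgeR's test under any of the 3 assignments. Whether heat shock factor 1 had a part in their differences was not tested.

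**Figure D5:**
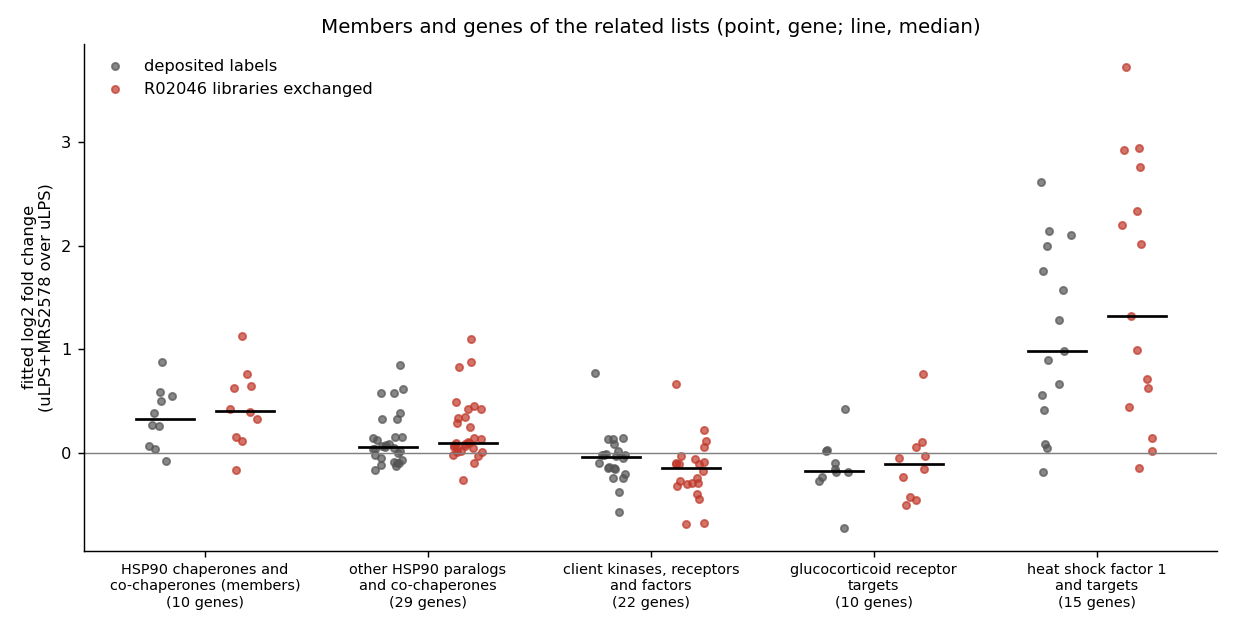
Fitted log2 fold change (uLPS+MRS2578 over uLPS) of the 10 HSP90 genes and of the genes of 4 related lists, under the deposited labels (grey) and the R02046 libraries exchanged (red). Points are genes and lines are medians. The median of heat shock factor 1 and its targets is 0.98 and 1.33, that of the HSP90 genes 0.33 and 0.41, and those of the other lists lie within 0.17 of 0.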

How the data were processed

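RNA of 8 primary microglia cultures, 1 per donor and condition, was sequenced from poly(A)-selected directional libraries. The deposited values are whole-number counts of reads per gene, made by the authors without normalization. The study's methods name fastp, STAR, SAMtools and HTSeq on Mmul_10, with only unique reads within exons counted, while the submitters' processing notes list Trimmomatic 0.30, TopHat2 2.0.14, SAMtools 1.3 and HTSeq 0.6.1p1. The strand setting and the annotation release are not given in the sources used here. The methods and the labels also differ in the M-CSF dose.

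Counts were tested in R 4.3.3 with edgeR 4.0.16 (TMM scaling, filterByExpr with a minimum count of 10, quasi-likelihood F-test, Benjamini-Hochberg adjustment at 0.05), with the donor as a block, since both libraries of a donor come from one animal. Across genes, the paired libraries departed from their condition means together, with correlations of 0.458 (R02046), 0.552 (R12016), 0.562 (R14143) and 0.602 (R07110). SE is the value implied by the test statistic. Within-donor differences use log2 CPM with a prior count of 2, and ratios use counts with a pseudocount of 0.5. The fits of edgeR and DESeq2 were tested on counts simulated without donor effects. No pair of libraries was a duplicate, with a chi-square per degree of freedom of at least 20.6. A count of 0 allows up to 3 counts, which is 0.0915 CPM at the largest and 0.325 CPM at the smallest depth, for counting error only. Genes were placed by symbol on the NCBI annotation of Mmul_10.

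The members and lists were chosen with earlier results of these data known. The genes named are the 10 members, the 3 genes of each list with the largest absolute log2 fold change at a mean of 1 CPM or more (or any with an adjusted p under 0.05), and the 5 genes most like HSP90AA1 and FKBP5. Alternatives were DESeq2 1.42.0, edgeR's likelihood ratio test, other filters, no donor block, the exchange of the R02046 libraries and leaving out each donor. Further fits, most of them with the exchange, were added after seeing the data.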

Additional observations from a re-analysis of the deposited data

Results flagged for a closer look

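In the uLPS group, the labelled library of R02046 stood apart from the other 3 donors for 2 members by Dixon's test. STIP1 was at 356 CPM there (Dixon ratio 0.845) and CHORDC1 at 128 CPM (Dixon ratio 0.848), both above Dixon's critical value for 4 samples. In all, 20 groups of 4 libraries were examined, and chance marks about 1 in 20 groups. This library is one of the pair whose condition is given differently by the labels and by the study's table of differentially expressed genes.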

How the results depend on the processing

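With the deposited labels, none of the 10 members was called by edgeR's quasi-likelihood test or in any of the alternatives, and the log2 fold changes kept their sign except without R07110, where CDC37 was at -0.020 and FKBP5 at 0.046. Over all fits that leave out a donor, with and without the exchange, CDC37 ran from -0.020 to 0.160 and FKBP5 from -0.234 to 0.046. Under the deposited labels and with 1 donor left out, HSP90AA1 ran from 0.43 to 1.36, FKBP4 from 0.31 to 0.90, HSP90AB1 from 0.34 to 0.80, CHORDC1 from 0.27 to 0.75, STIP1 from 0.20 to 0.54, PTGES3 from 0.08 to 0.44 and AHSA1 from 0.07 to 0.39, each lowest without R12016 and highest without R02046, and TRAP1 from 0.01 (without R14143) to 0.15 (without R02046). The mean log2 ratios behaved alike: HSP90AA1 to HSP90AB1 ran from 0.11 to 0.55, HSP90AA1 to TRAP1 from 0.43 to 1.19, FKBP4 to FKBP5 from 0.38 to 1.06 and STIP1 to CDC37 from 0.18 to 0.44, lowest without R12016 and highest without R02046. The ratio of AHSA1 to PTGES3 ran from -0.046 to 0.013 when each donor was left out in turn, turning sign without R07110 and without R14143. Over all genes, 0 were called in the quasi-likelihood test, 1 in DESeq2's Wald test and 5 in edgeR's likelihood ratio test, and 0 when any donor was left out. With the R02046 libraries exchanged 75 genes and 0 members were called, 78 genes with DESeq2's size factors and 39 with edgeR's earlier quasi-likelihood estimation. In fits of the exchanged libraries that were added after seeing the data, the likelihood ratio test called 616 genes and 4 members (HSP90AA1, HSP90AB1, FKBP4 and CHORDC1), and the Wald test 583 genes and 3 members (HSP90AB1, FKBP4 and CHORDC1). When a donor was also left out, the number of called genes ran from 0 to 918 and of members from 0 to 5. Without R14143 it was 918 genes and 5 members (PTGES3 in addition to those 4), without R12016 it was 5 genes, and without R07110 it was 0, so the calls rest on which donors are used. Without the replicate block 0 members were called under both assignments, and the block changed no member's call. The cause of these differences was not tested. Each member had 659 reads or more in every library.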
